A study of Homo sapiens with 12 samples.

Results

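The PIM kinase inhibitor PIM447 was given on its own to MM.1S cells, an established human multiple myeloma cell line, and the transcriptome was compared with that of untreated cells of the same line. The comparison took every array labelled PIM447 and every array labelled Control, which were 6 of the 12 arrays of the series (3 PIM447 and 3 Control). PIM447 was used at 100 nM for 24 h. The Control cells were untreated, and their collection time is not given in the sources used here. The remaining 6 arrays held cells given Pd (pomalidomide 200 nM with dexamethasone 5 nM, for 15 h) and PIM-Pd (PIM447 100 nM added to the same doses of both drugs, for 10 h), with 3 arrays each. Each group was sampled in 3 independent experiments of the same line, and the experiment number was used to pair a PIM447 array with a Control array. A pair therefore measures repeat cultures of 1 line, and the number of arrays limits the precision of every value below.

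The PIM family comprises the serine/threonine kinases PIM1, PIM2 and PIM3, which are active once made and are therefore regulated mainly by their abundance. They phosphorylate proteins that control cap-dependent translation, survival and cell cycle entry, and myeloma cells depend largely on PIM2. PIM447 competes with ATP for all members of the family. Because the kinases act on proteins, changes in mRNA may follow indirectly, for example through transcription factors such as MYC or through mRNA stability. Such routes were not tested here.

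The values are log2 signals of 17710 features, each the combined probes of 1 Ensembl gene. A change is the mean of the 3 differences PIM447 minus Control, 1 per pair, in log2 units, so that a change of 1 is a doubling of signal. Gene names could be attached to 1909 features, through the gene lists of the study. These lists held 1372 of the named features for PIM-Pd, 1228 for Pd and 4 for PIM447 alone, all chosen against the same Control arrays. Named features are thus a selection that shares its controls with the comparison below. A gene named because it fell with Pd or PIM-Pd may have high Control values, which favour a lower value with PIM447. Counts are given beside the shares of named and of all features. Named features pool genes that rose and genes that fell, so their share does not remove this selection. List members without a name are not seen. PIM2 and PIM3 have no named feature and are not analysed here.

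Differences between PIM447 alone and Control were small. No feature differed from Control at an adjusted p under 0.05 in limma (0 of 17710, 0%), and 1346 had an unadjusted p under 0.05. Of these, 665 were lower with PIM447 (3.75% of all features) and 681 were higher (3.85%). The middle of the distribution was narrow, with the 5th percentile of the change at -0.28 and the 95th at 0.28. Only 55 features were at least 1.5-fold apart in the mean (32 lower and 23 higher with PIM447), and 0 reached 2-fold. Of these 55 features, 32 carry a name. The study called 4 genes for PIM447 alone on the same arrays with SAM, at a fold change of at least 2 and a q-value under 0.05. The counts here depart from that call, but they are not like for like. The test differs, the fold here is a difference of log2 means, and the fold of the study may be computed otherwise. The 95% interval of a change reached 0.28 to either side in the median feature. The change in 1 pair correlated weakly with that in another across features, with r = 0.196 between pairs 1 and 2, 0.136 between pairs 1 and 3 and 0.0560 between pairs 2 and 3.

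Among named features 242 were lower (12.7%) and 177 higher (9.27%) at an unadjusted p under 0.05. All 3 PIM447 arrays lay below all 3 Control arrays in 884 of all features (4.99%) and in 231 of the named ones (12.1%). They lay above all 3 Control arrays in 1060 of all features (5.99%) and in 167 of the named ones (8.75%).

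**Figure D1:**
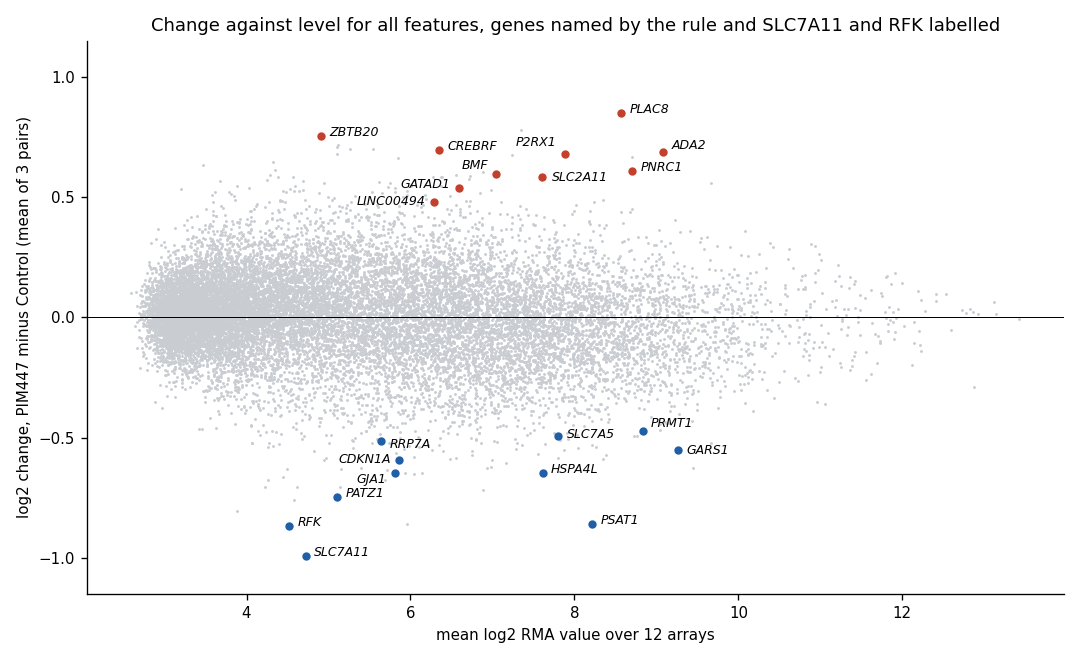
Each grey point is 1 of 17710 features, with its mean log2 RMA value over 12 arrays on the horizontal axis and its log2 change with PIM447 (mean of 3 pairs) on the vertical axis. Labelled in blue (lower) and red (higher) are 19 of the 20 genes that the naming rule picked and, in addition, SLC7A11 and RFK, with SLC7A11 lowest at -0.99 and PLAC8 highest at 0.85.

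2 of the 3 PIM447 arrays had a narrower spread of values than the Control arrays. The SD over features was 1.91 in PIM447 replicates 1 and 2, against 1.94 to 1.95 in the 3 Control arrays and 1.95 in PIM447 replicate 3. It was 1.91 in PIM-Pd replicate 1 and 1.93 in PIM-Pd replicate 3 as well. Among the 25% of features with the highest level the median change was -0.05 in pair 1 and -0.07 in pair 2, but 0.01 in pair 3. Results are therefore also given after a further quantile normalization, which gives all arrays the same spread, and without both arrays. In the latter PIM447 is represented by replicate 3 alone and its spread is taken from the other groups. The Pd and PIM-Pd arrays then also enter its change, through the replicate number as a term of the fit.

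The lowest p belonged to SLC7A11, which encodes the transport subunit of the cystine/glutamate exchanger that feeds glutathione synthesis. Its log2 values were 6.05, 5.30 and 5.22 in Control replicates 1 to 3 and 4.95, 4.45 and 4.19 in the PIM447 replicates. Every PIM447 array was below every Control array, and each was about 1 log2 unit below its own partner (-1.10, -0.85 and -1.02). The mean change was -0.99 ± 0.13 (SE, n = 3 pairs), or 1.99-fold lower, with a 95% interval of -1.27 to -0.71 and an adjusted p of 0.0719 in limma. This was the lowest adjusted p of all features, and the next was 0.352. With weights estimated for each array the adjusted p of SLC7A11 in limma was 0.0401, and under the other alternatives it reached up to 0.724 (without experiment 3), leaving aside the fit without PIM447 replicates 1 and 2. The change itself lay between -1.08 and -0.93 under the 16 alternatives run for it. Its mean level over 12 arrays, 4.72, was below the median feature, so SLC7A11 and the similarly dim RFK fell outside the naming rule and were chosen after their values were seen.

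SLC7A11 belongs to the amino acid response driven by the transcription factor ATF4, which is translated when amino acids run short or when mTORC1 is active, and which switches on amino acid transporters, serine synthesis and tRNA charging. Of 38 genes listed for this response 17 have a named feature, and 15 of these had a mean below Control. At an unadjusted p under 0.05, 10 of the 17 were lower and 1 was higher, beside 12.7% and 9.27% of named features (3.75% and 3.85% of all features). The 17 were named for a change with Pd or PIM-Pd against these Control arrays, so their direction is not independent evidence. The same holds for the lists below. None passed adjustment over all features (0 of 17 in limma). The median change of the 17 was -0.30, beside -0.02 for all named features and 0.01 for all features.

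PSAT1, the aminotransferase of the serine pathway, measured 9.59, 8.95 and 8.88 in the Control arrays and 8.61, 7.95 and 8.30 in the PIM447 arrays. The groups did not overlap, and the change was -0.86 ± 0.16 (SE, n = 3 pairs; adjusted p = 0.352 in limma). PHGDH, which commits glycolytic carbon to serine, measured -0.51 in the mean with no overlap of the arrays (6.31, 6.28 and 6.12 against 5.60, 5.90 and 5.67). Downstream of serine, the mitochondrial folate enzymes SHMT2 and MTHFD2 measured -0.29 and -0.30. Of the 5 named serine and one-carbon enzymes 4 were lower at an unadjusted p under 0.05, and the exception was MTHFD1L. At that threshold 12.7% of named features and 3.75% of all features were lower.

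Most named amino acid transporters of the list also had lower values. SLC7A5, the leucine carrier of the large neutral amino acid exchanger, gave one of the most even differences, with 8.43, 8.56 and 8.49 in Control and 7.93, 8.05 and 8.02 with PIM447. Its change was -0.49 ± 0.11 (SE, n = 3 pairs; adjusted p = 0.487 in limma). The glutamine carrier SLC1A5 measured -0.38 and the glycine carrier SLC6A9 -0.56. The arginine carrier SLC7A1 measured -0.07 with an unadjusted p above 0.05.

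GPT2, a mitochondrial transaminase that makes alanine, had a mean change of -0.76 that rested on 2 pairs. It measured 5.69, 5.45 and 4.67 in Control and 4.41, 4.46 and 4.66 with PIM447, so that pair 3 hardly differed. ASNS, the asparagine synthetase, measured 8.57, 7.67 and 7.61 in Control and 7.85, 7.46 and 7.42 with PIM447, and its groups overlapped. KLHL24, an adaptor of a ubiquitin ligase, was the member higher at an unadjusted p under 0.05, at 0.67, with 6.46, 6.90 and 6.64 in Control and 7.31, 7.58 and 7.13 with PIM447.

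tRNA synthetases, which load amino acids onto tRNA and include many ATF4 targets, differed from Control mainly in pairs 1 and 2. Of 20 listed cytosolic enzymes 7 are named, and 4 were lower at an unadjusted p under 0.05 (GARS1, AARS1, YARS1 and NARS1). The shares lower at that threshold were 12.7% of named features and 3.75% of all features. The glycine enzyme GARS1 measured 9.94, 9.56 and 9.54 in Control and 9.30, 8.90 and 9.19 with PIM447, a change of -0.55 with no overlap. The alanine enzyme AARS1 measured 8.35, 8.28 and 8.05 in Control and 7.88, 7.78 and 7.80 with PIM447, a change of -0.41 with no overlap. The median of the 7 genes was -0.44 in pair 1, -0.39 in pair 2 and 0.0019 in pair 3.

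The counts in both lists depended on single experiments. After a further quantile normalization 8 of the 17 ATF4 response genes were lower at an unadjusted p under 0.05, with a median of -0.25, and 4 of the 7 tRNA synthetases, with a median of -0.24. Of the 17 ATF4 response genes 5 were lower at an unadjusted p under 0.05 without experiment 1 and 6 without the Control array of experiment 1. Without PIM447 replicates 1 and 2 the count was 5, with a median of -0.26. For the tRNA synthetases the count was 2 of 7 without experiment 1, without experiment 2, without Control replicate 1 or without either of PIM447 replicates 1 and 2. Without both of these arrays it was 0, with a median of -0.0020.

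ATF4 binds a composite element with C/EBP factors, and the letters TGATGNAA were searched on both strands of the 250 bases before each gene start (RefSeq, GRCh38.p14). They occur in 3.19% of 27305 promoters, in 1 of 13 promoters found for the named ATF4 response genes (ASNS) and in 2 of 5 found for the named tRNA synthetases (AARS1 and IARS1). ASNS and AARS1 are shown because they are lower at an unadjusted p under 0.05 and hold the letters, which are in capitals. The match in ASNS ends 60 bases before the gene start. The match in AARS1 lies on the opposite strand and ends 179 bases before the start.
ASNS, chr7:97872409-97872658, minus strand: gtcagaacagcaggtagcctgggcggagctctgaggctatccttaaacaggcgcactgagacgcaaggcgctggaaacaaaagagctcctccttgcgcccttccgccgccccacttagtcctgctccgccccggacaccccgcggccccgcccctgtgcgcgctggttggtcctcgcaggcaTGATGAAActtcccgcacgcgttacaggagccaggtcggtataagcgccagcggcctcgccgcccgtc
AARS1, chr16:70289507-70289756, minus strand: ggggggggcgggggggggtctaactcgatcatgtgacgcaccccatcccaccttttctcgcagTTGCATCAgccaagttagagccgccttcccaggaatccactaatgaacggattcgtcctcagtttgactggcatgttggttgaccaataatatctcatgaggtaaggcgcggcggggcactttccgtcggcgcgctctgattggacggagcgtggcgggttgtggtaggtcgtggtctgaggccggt

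**Figure D2:**
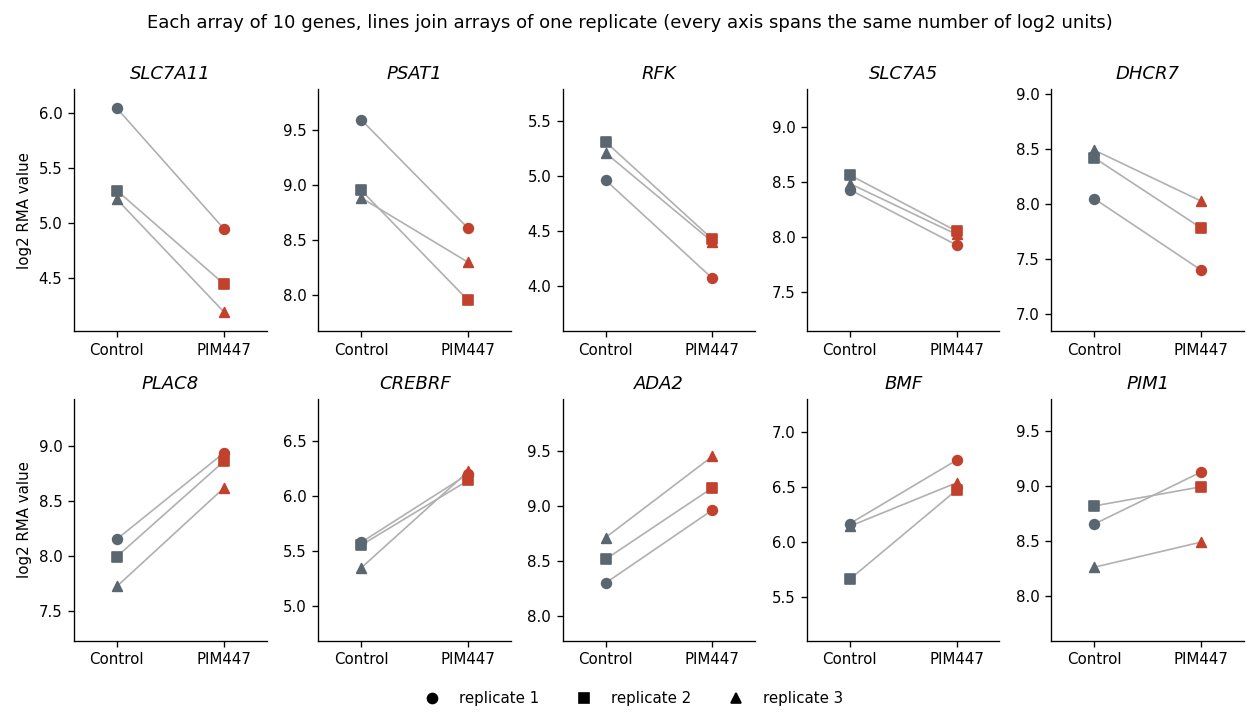
Log2 RMA values of 10 genes in the 3 Control arrays (grey) and the 3 PIM447 arrays (red), with a line joining the arrays of each replicate and the same height in log2 units on every vertical axis. The upper row holds genes below Control in every pair and the lower row genes above it in every pair, from SLC7A11 at -0.99 to PIM1 at 0.29.

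Lipid synthesis genes were the other metabolic group with lower values. Cholesterol is made from acetyl-CoA by enzymes whose genes are switched on together by SREBF2, and fatty acids by enzymes under SREBF1. Of 28 cholesterol genes listed 11 are named, and 10 had a mean below Control. At an unadjusted p under 0.05, 7 were lower and 0 higher, beside 12.7% and 9.27% of named features (3.75% and 3.85% of all features). The median change of the 11 was -0.41, and it was much the same in the pairs (-0.39, -0.42 and -0.39). All 5 named genes of fatty acid synthesis, out of 18 listed, were lower at an unadjusted p under 0.05, beside the same shares. Their median was -0.33. No gene of either list passed adjustment in limma.

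DHCR7, which reduces the sterol ring in the last steps to cholesterol, measured 8.05, 8.42 and 8.49 in Control and 7.40, 7.78 and 8.02 with PIM447. The groups did not overlap, and the change was -0.58 ± 0.14 (SE, n = 3 pairs; adjusted p = 0.487 in limma). HMGCS1, which makes the HMG-CoA that opens the pathway, measured -0.55 with no overlap, and its pairs differed by -0.44, -0.42 and -0.79. INSIG1, the sterol sensor that holds SREBP factors in the endoplasmic reticulum, measured -0.50, ACAT2 -0.45, IDI1 -0.41 and SQLE -0.36.

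SCD, the desaturase that makes oleic acid, measured 8.59, 9.11 and 9.04 in Control and 8.04, 8.48 and 8.51 with PIM447, a change of -0.57 with no overlap. ACACA, which carboxylates acetyl-CoA and commits it to fatty acid synthesis, had a mean change of -0.45 that came from pairs 1 and 2 (-0.67 and -0.66), and pair 3 differed by -0.01. FASN, the synthase itself, measured -0.33, ACLY -0.27 and the elongase ELOVL5 -0.26.

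After a further quantile normalization the cholesterol count was 7 of 11, with a median of -0.40, and the fatty acid count was 3 of 5, with a median of -0.29. The fatty acid count was also 3 in the unpaired fit. The cholesterol count without PIM447 replicates 1 and 2 was 3 of 11 and its median -0.34. The fatty acid count was 1 of 5 without experiment 2, without Control replicate 2 or without PIM447 replicate 1, 2 without experiment 1, and 3 without Control replicate 1 or without PIM447 replicate 2. Without PIM447 replicates 1 and 2 it was 0 of 5, with a median of -0.20.

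Glycolysis differed less. Of 24 listed genes 9 are named, and 8 had a mean below Control. At an unadjusted p under 0.05, 2 were lower, beside 12.7% of named features and 3.75% of all features. They were the pyruvate kinase PKM at -0.52 and the phosphoglycerate kinase PGK1 at -0.31. RFK, the kinase that turns riboflavin into the flavin cofactor FMN, measured 4.96, 5.31 and 5.21 in Control and 4.07, 4.42 and 4.40 with PIM447, a change of -0.86 ± 0.17 without overlap (SE, n = 3 pairs; adjusted p = 0.352 in limma).

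**Figure D3:**
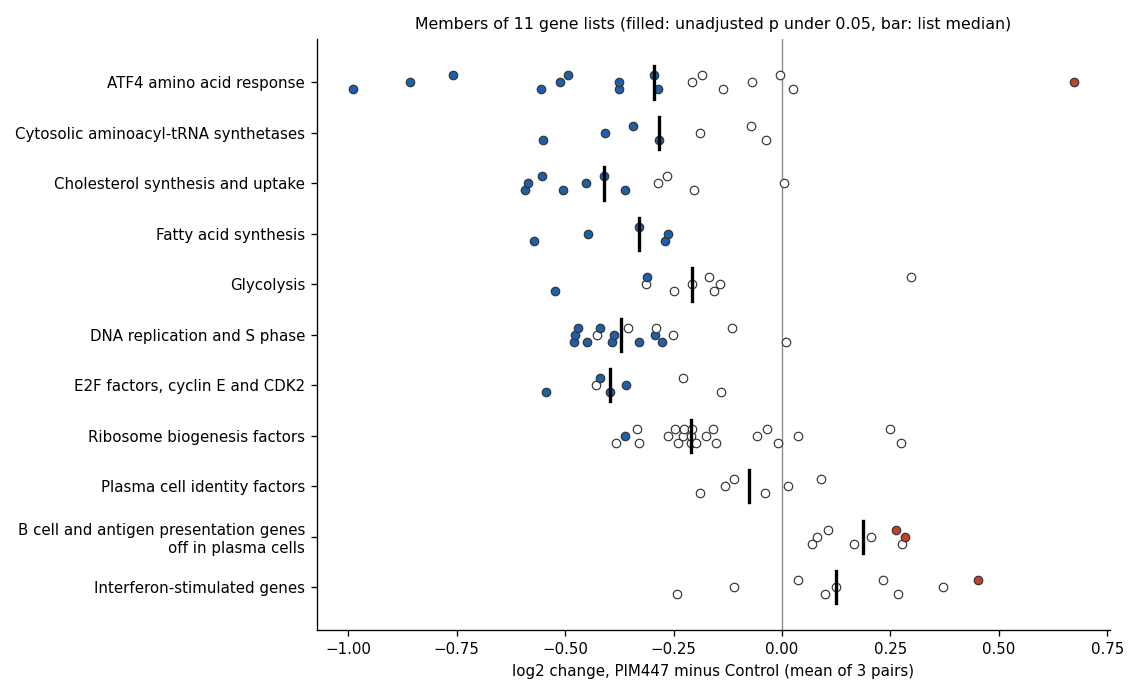
Each point is a named member of 1 of 11 gene lists at its log2 change with PIM447 (mean of 3 pairs), filled in blue (lower) or red (higher) where the unadjusted p is under 0.05, and the black bar is the list median. The medians run from -0.41 for cholesterol synthesis to 0.19 for B cell and antigen presentation genes.

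Many named genes of DNA replication had means below Control. Entry into S phase needs E2F factors and cyclin E, which switch on the helicase loaders and polymerase accessories. Of 36 replication genes listed 16 are named, and 15 had a mean below Control, with a median of -0.37. At an unadjusted p under 0.05, 10 were lower and 0 higher, beside 12.7% and 9.27% of named features (3.75% and 3.85% of all features). All 10 had changes between -0.48 and -0.28 and none passed adjustment in limma. GINS1 and GINS2, subunits of the replicative helicase, measured -0.48 and -0.47. For GINS2 the values were 6.41, 6.32 and 6.58 in Control and 6.06, 5.79 and 6.05 with PIM447, without overlap. RFC3, a subunit of the clamp loader, measured 7.73, 7.53 and 7.70 in Control and 7.25, 6.90 and 7.45 with PIM447, a change of -0.45 without overlap. The sliding clamp PCNA measured -0.25 and the thymidine kinase TK1 -0.12, both with an unadjusted p above 0.05.

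Of 7 named genes in the E2F and cyclin E list 4 were lower at an unadjusted p under 0.05, beside 12.7% of named features and 3.75% of all features. The 4 genes were E2F8 (-0.55), E2F1 (-0.42), the phosphatase CDC25A (-0.40) and the cyclin CCNE1 (-0.36). The list median was -0.40. CDKN1A, a CDK inhibitor that opposes these genes, was also lower, at 5.61, 5.79 and 5.75 in Control and 4.93, 4.92 and 5.52 with PIM447. Its change was -0.59 ± 0.14 (SE, n = 3 pairs; adjusted p = 0.487 in limma). Among the D cyclins CCND1 measured -0.30, CCND2 -0.26 and CCND3 0.0025.

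The replication count moved with the arrays used. It was 2 of 16 without Control replicate 1 or without PIM447 replicate 2, 3 without Control replicate 3 or without experiment 2, and 4 without experiment 3. The median was -0.18 without PIM447 replicate 2. The count was 6 after a further quantile normalization, with a median of -0.33, 5 in the unpaired fit and 3 without PIM447 replicates 1 and 2, where the median was -0.20. The E2F count was 2 of 7 without experiment 1 or Control replicate 1, and 1 without PIM447 replicate 2 or without PIM447 replicates 1 and 2. It was 3 after a further quantile normalization, with a median of -0.42, and the median was -0.26 without Control replicate 1 and without PIM447 replicates 1 and 2.

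The letters TTTCCCGC, the core of an E2F site, were searched in the same windows on both strands. They occur in 1.42% of 27305 promoters, in 4 of 14 promoters found for the named replication genes (GINS2, PCNA, RFC3 and UHRF1) and in 0 of 5 found for the named E2F and cyclin E genes. GINS2 and RFC3 are shown because they hold the letters and are lower at an unadjusted p under 0.05. In both the letters lie on the opposite strand, so the capitals read GCGGGAAA, and they end 23 and 47 bases before the gene start, respectively. PCNA and UHRF1 hold the letters with an unadjusted p above 0.05.
GINS2, chr16:85688955-85689204, minus strand: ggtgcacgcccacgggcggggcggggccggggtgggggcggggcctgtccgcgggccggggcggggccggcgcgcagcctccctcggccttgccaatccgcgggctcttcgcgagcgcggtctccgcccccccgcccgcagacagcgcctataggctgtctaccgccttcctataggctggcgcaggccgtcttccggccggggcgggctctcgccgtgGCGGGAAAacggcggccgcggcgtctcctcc
RFC3, chr13:33817899-33818148, plus strand: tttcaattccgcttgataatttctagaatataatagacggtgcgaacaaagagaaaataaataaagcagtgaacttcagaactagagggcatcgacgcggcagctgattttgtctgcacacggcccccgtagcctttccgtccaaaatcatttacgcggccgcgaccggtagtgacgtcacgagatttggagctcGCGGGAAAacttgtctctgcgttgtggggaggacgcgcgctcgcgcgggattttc

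Translation and ribosome assembly were of interest because PIM kinases act on cap-dependent initiation. Of 40 ribosome biogenesis factors listed 22 are named. Although 19 had a mean below Control, 1 was lower at an unadjusted p under 0.05 (UTP20, a factor of the small subunit, at -0.36), and the median was -0.21. That count is below the 12.7% of named features lower at this threshold (3.75% of all features). RRP7A, a factor of ribosomal RNA processing that the rule named, measured 5.82, 6.01 and 6.25 in Control and 5.19, 5.64 and 5.71 with PIM447, a change of -0.51 without overlap. The ribosome count was 4 without PIM447 replicate 1, 3 without PIM447 replicate 3, 2 without experiment 3 or Control replicate 2, and 0 without experiment 1, experiment 2, Control replicate 1, or PIM447 replicates 1 and 2. It was 4 in the 6 arrays alone, 3 with array weights or median centring, and 2 after a further quantile normalization, where the median was -0.18. The median was -0.13 without Control replicate 1 and -0.11 without PIM447 replicate 2.

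Of 4 named factors of cap-dependent translation, 2 were lower and 1 higher at an unadjusted p under 0.05. The shares were 12.7% and 9.27% of named features (3.75% and 3.85% of all features). EIF4EBP1, the translation repressor that mTORC1 inactivates, measured -0.40, and the scaffold EIF4G1 measured -0.23. PDCD4, an inhibitor of the helicase that assists initiation, measured 0.60, with 6.71, 5.97 and 6.16 in Control and 7.21, 6.46 and 6.98 with PIM447. The fourth, the kinase MKNK1, measured 0.11 with an unadjusted p above 0.05.

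The rule named other genes below Control that lie in none of the lists. PATZ1, a zinc finger transcription factor, measured 5.56, 5.64 and 5.71 in Control and 4.73, 4.82 and 5.13 with PIM447, a change of -0.75 ± 0.12 (SE, n = 3 pairs; adjusted p = 0.352 in limma). HSPA4L, a chaperone that recharges HSP70 proteins, measured -0.65, and GJA1, a connexin of gap junctions, -0.64. GJA1 differed by -1.04 in pair 2 but by -0.21 in pair 3. PRMT1, the main arginine methyltransferase of the cell, differed by almost the same amount in every pair, with 9.56, 9.65 and 9.56 in Control against 9.10, 9.20 and 9.06, a change of -0.47.

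Genes with higher values formed fewer of the groups listed, but the lists and names were chosen with the results of the study known. Over all features 681 were higher and 665 lower at an unadjusted p under 0.05. PLAC8, a small cysteine-rich protein, had the largest positive change among all features. It measured 7.73 to 8.16 in Control and 8.62 to 8.94 with PIM447, the pairs differed by 0.78, 0.87 and 0.89, and the mean gave a change of 0.85 ± 0.15 (SE, n = 3 pairs; adjusted p = 0.352 in limma), or 1.80-fold. CREBRF, a regulator of the stress transcription factor CREB3, measured 5.58, 5.55 and 5.35 in Control and 6.20, 6.14 and 6.22 with PIM447, a change of 0.70 ± 0.12. ZBTB20, a zinc finger repressor, measured 0.75, and PNRC1, a nuclear receptor coactivator, 0.61. In all 4 genes the PIM447 arrays lay above all Control arrays, as in 5.99% of all features and 8.75% of named ones. The rule chose its genes on these same values, so a lack of overlap in them is not independent evidence.

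ADA2, a secreted adenosine deaminase, measured 8.30, 8.51 and 8.71 in Control and 8.96, 9.16 and 9.45 with PIM447, a change of 0.69. P2RX1, a cation channel opened by extracellular ATP, measured 7.29, 7.15 and 7.37 against 7.86, 8.06 and 7.92, a change of 0.68. The sugar transporter SLC2A11 measured 0.58, the chromatin factor GATAD1 0.54 and the long noncoding RNA LINC00494 0.48, each without overlap.

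BMF, a member of the BCL2 family that sets off apoptosis by binding its survival proteins, measured 6.17, 5.66 and 6.15 in Control and 6.75, 6.48 and 6.54 with PIM447. The change was 0.60 ± 0.12 (SE, n = 3 pairs; adjusted p = 0.352 in limma) with no overlap. The other 3 named family members had unadjusted p above 0.05, with BCL2 at 0.17, MCL1 at 0.02 and BID at -0.28. MXD4, which competes with MYC for its partner MAX, measured 0.67, but its groups overlapped and its pairs differed by 0.55, 0.98 and 0.47. SPRED1, a feedback inhibitor of MAPK signalling, measured 0.41. They were the only members higher at an unadjusted p under 0.05 among 5 named MYC network genes and 4 named MAPK feedback genes, respectively. At that threshold 9.27% of named features and 3.85% of all features were higher, and no difference of these lists is read.

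Class II antigen presentation genes had means slightly above Control. All 8 named members of the B cell and antigen presentation list, out of 18, had a mean above Control, with a median of 0.19. At an unadjusted p under 0.05, 2 were higher (HLA-DRA at 0.28 and HLA-DMB at 0.26), beside 9.27% of named features and 3.85% of all features. Of 9 named interferon-stimulated genes 7 had a mean above Control and 1 was higher at the same threshold (STAT2 at 0.45). This is close to the share of named features, and no difference of the group is read from it. STAT2 differed by 0.87 in pair 2 and by 0.01 in pair 3.

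PIM1, the named PIM kinase, measured 8.65, 8.82 and 8.26 in Control and 9.13, 8.99 and 8.49 with PIM447. It was above its partner in every pair, but the groups overlapped, and the change was 0.29 ± 0.15 (SE, n = 3 pairs; 95% interval -0.03 to 0.61; adjusted p = 0.693 in limma). MYC, which PIM kinases stabilize as a protein, measured 9.21, 9.65 and 9.59 against 9.17, 9.48 and 9.69, a change of -0.04 with a 95% interval of -0.30 to 0.22, and its sign turned under several alternatives. IRF4, the factor on which plasma cells depend, measured -0.19 (95% interval -0.45 to 0.08), and -0.10 without experiment 1 and -0.06 without PIM447 replicate 1.

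Of 8 genes that the study followed with other assays all had a mean below Control, and 3 were lower at an unadjusted p under 0.05 (ACACA, PGK1 and CCND2). The share lower at that threshold was 12.7% of named features and 3.75% of all features. The other 5 genes were PFKM at -0.21, IRF4 at -0.19, CDK4 at -0.14, FBL at -0.06 and MYC at -0.04. This list was chosen by the study on these samples, so its direction is not independent evidence. Of 6 named plasma cell identity genes 0 had an unadjusted p under 0.05 and the median was -0.08. Their mean levels over 12 arrays were 8.58 for CD38, 9.76 for SLAMF7, 9.46 for IRF4 and 11.15 for GPRC5D. Of the 7 T and NK cell markers listed the named one, CD3E, had a mean level of 4.32 (median of all features 4.85), and markers of myeloid, stromal and epithelial cells are not analysed here.

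The remaining lists held few differences at an unadjusted p under 0.05. The shares were 12.7% of named features lower and 9.27% higher (3.75% and 3.85% of all features). Single members are given as values, and no difference of a list is read from them. Of 7 named glutathione and antioxidant genes 2 were lower, SLC7A11 and TALDO1, an enzyme of the pentose phosphate pathway (-0.35). Of 2 named mitotic genes 1 was lower, the spindle checkpoint protein MAD2L1 (-0.43). Of 7 named surface antigens 1 was lower, the adhesion ligand CD58 (-0.36), and of 4 bone disease factors 1, the growth factor VEGFA (-0.32). Of 5 named genes of IL6 signalling 1 was higher, STAT3 (0.35), whose pair 1 differed by -0.02. Of 4 named NF-kB targets 1 was lower, CCND2. No named gene of the mTORC1 regulators (3 named) or of the unfolded protein response (4 named) had an unadjusted p under 0.05, and the stress gene DDIT4 measured 0.02.

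**Figure D4:**
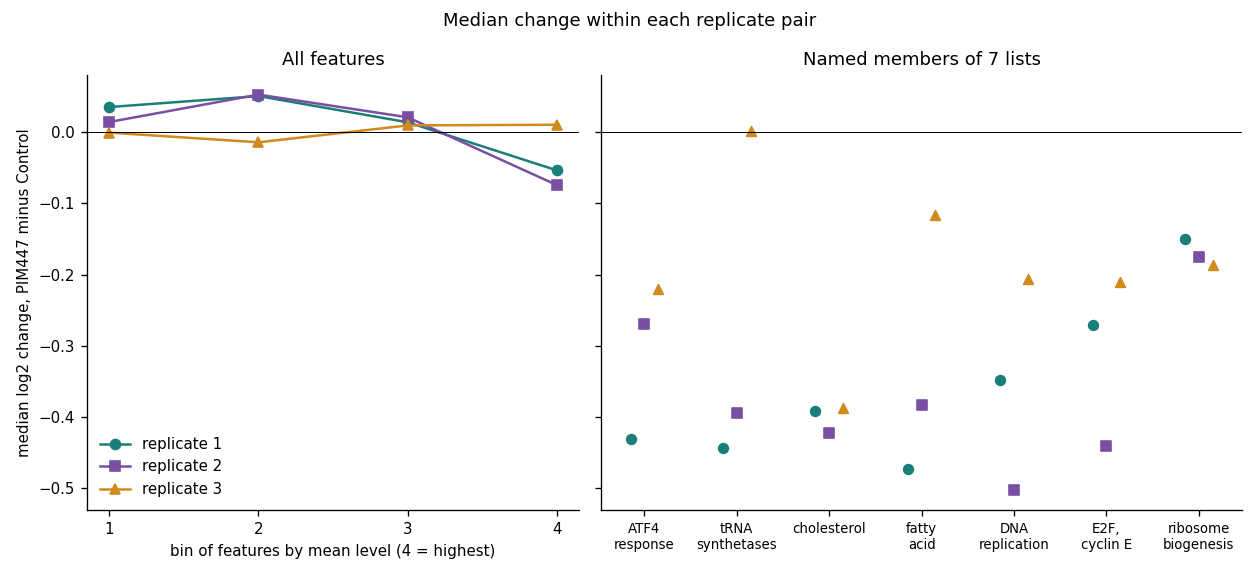
Median log2 change with PIM447 within each replicate pair, on the left for all features in 4 equal bins of rising mean level and on the right for the named members of 7 lists, with 1 symbol per replicate pair on a shared vertical axis. In the highest bin pairs 1 and 2 lie at -0.05 and -0.07 and pair 3 at 0.01, and the cholesterol list lies between -0.42 and -0.39 in all 3 pairs, whereas the tRNA synthetases are at 0.0019 in pair 3.

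PIM447 was also added to Pd, which allows the same genes to be read in arrays that do not enter the mean differences of the main fit. The names, however, came from genes that the study listed from these Pd and PIM-Pd arrays against Control. A gene named for a low value in PIM-Pd may lie below Pd through that choice alone. Counts of named features are therefore not independent evidence here. The incubation times differed (PIM-Pd 10 h and Pd 15 h), so time and drug cannot be told apart there. PIM-Pd minus Pd gave 11 features at an adjusted p under 0.05 in limma (0.0621% of 17710), 3 higher and 8 lower. At an unadjusted p under 0.05, 5.75% of all features were lower and 4.61% higher, and of the named features 23.6% were lower and 8.59% higher. Without any 1 of the experiments the count of 11 was 0 or 1, and 1 was the value without experiment 2.

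Of the 10 genes that the rule named below Control, 8 were also below Pd when PIM447 was added, and 6 of these had an unadjusted p under 0.05. At that threshold 23.6% of named features and 5.75% of all features were lower, and the median named feature was at -0.11. SLC7A5 measured -0.49 alone and -0.65 added to Pd, PRMT1 -0.47 and -0.65, and GJA1 -0.64 and -0.90. The adjusted p of each in PIM-Pd minus Pd was 0.0584 in limma. PATZ1 measured -0.75 alone and -0.38 added, and RRP7A -0.51 and -0.40. Other leading genes showed no such second difference. SLC7A11 measured 0.08 and PSAT1 -0.03 when PIM447 was added, after values of -1.14 and -1.41 with Pd against Control, a comparison that shares the Control arrays.

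Of the 10 genes named above Control, 4 were above Pd when PIM447 was added. CREBRF measured 0.70 alone and 0.48 added to Pd, and it was the only one of the 10 that was higher in PIM-Pd than in Pd at an unadjusted p under 0.05. At that threshold 8.59% of named features and 4.61% of all features were higher. Named features leaned below Pd, so the count above Pd is not compared with that of the lower genes. PLAC8 measured 0.85 alone and -0.26 added, BMF 0.60 and -0.18, and LINC00494 0.48 and -0.29. Both PLAC8 and BMF were above Control with Pd as well (0.92 and 1.90, shared Control arrays). The effects with and without Pd differed at an unadjusted p under 0.05 in 8 of these 10 genes. They differed so in 4 of the 10 named below Control and in 1210 of all 17710 features. The 20 genes were chosen on PIM447 minus Control values that enter this difference, so these counts are not independent evidence. The difference did not pass adjustment in limma for any of the 20 genes, the lowest adjusted p being 0.178 for PLAC8. It passed for 2 of 17710 features (0.0113%), EFEMP1 and ARHGAP6.

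The gene groups were read in the same way. The median of all named features was -0.02 with PIM447 alone and -0.11 added to Pd, beside 0.01 and 0.0022 for all features. The median of the named ribosome biogenesis factors was -0.21 with PIM447 alone and -0.42 added to Pd. There 14 of 22 were lower at an unadjusted p under 0.05, beside 23.6% of named features and 5.75% of all features. These members were named from the same Pd and PIM-Pd arrays, so the count is not independent of that choice. Fatty acid synthesis measured -0.33 and -0.45 in the median. The ATF4 response measured -0.30 and -0.06, cholesterol synthesis -0.41 and -0.07, and DNA replication -0.37 and -0.16. No test of the difference was made for lists.

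**Figure D5:**
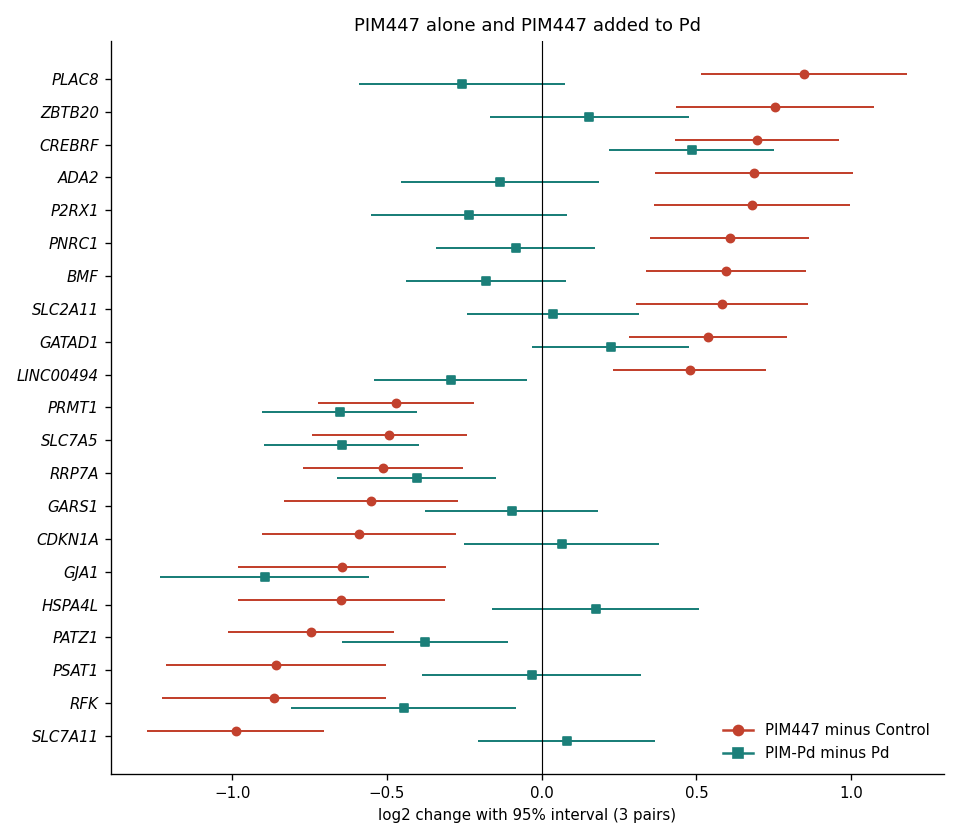
Log2 change with its 95% interval (3 pairs each) for PIM447 minus Control (red circles) and PIM-Pd minus Pd (green squares) in 19 of the 20 genes of the naming rule and in SLC7A11 and RFK, in order of the first. SLC7A5, PRMT1 and GJA1 lie below 0 in both, CREBRF lies above 0 in both, and PLAC8 and SLC7A11 are near 0 or on the other side when PIM447 was added to Pd.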

How the data were processed

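Total RNA from MM.1S cells was hybridised to human Clariom S arrays, 1 array per sample, 12 arrays in 4 groups of 3. The deposited values are log2 signals: the authors processed the scans with RMA (background correction, quantile normalization and summarization) in oligo 1.44.0 under R 3.5.0 with a custom probe annotation by Ensembl gene, and the 12 arrays share that normalization. Arrays of 1 group correlated with r of 0.987 to 0.993. Number of columns of per-sample values left out: 0.

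The 17710 features were fitted in limma 3.58.1 (R 4.3.3; lmFit and eBayes, no filter) with treatment group and replicate number as terms, over all 12 arrays, and p-values were adjusted by Benjamini-Hochberg over all features. In this fit the Pd and PIM-Pd arrays contributed to the spread of PIM447 minus Control only. With array weights, or with single arrays left out, they also entered the change through the replicate term. The study used SAM, which was not run here. The labels give each array a biological replicate number, and arrays of the same number were taken as pairs. Same-numbered Control and PIM447 arrays deviated together (r of 0.303, 0.220 and 0.213, against -0.20 to -0.02 for other numbers). Deviations were taken from the group mean and cancel out within a group, so positive values for same numbers force negative ones elsewhere. The range for other numbers is therefore not separate evidence for the pairing. The p-values measure the spread between repeat cultures of 1 line.

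Symbols came from the identifier pairs in the gene lists of the study: 1835 stood in RefSeq as listed, 65 were updated through a synonym and 9 were kept. Fold changes and scores in those lists were not used. Named genes were, per direction, those with an adjusted p under 0.05 or, since there were none, the 10 with the smallest p among features above the median level that had the same sign in all 3 pairs. Added to these were the PIM kinases, the genes followed up by the study and, per list, the 2 largest changes above the median level; further list members are given as examples of their list. Of the genes so chosen, 1 that the rule picked and 1 list member are counted but not reported here by name. The genes, lists and rules were chosen with earlier results of these data known. Alternatives tried were the unpaired fit, the 6 arrays alone, a level filter, quantile normalization, median centring, a trended robust prior, array weights, other thresholds and leaving out experiments or arrays. Leaving out PIM447 replicates 1 and 2 together was chosen after seeing the data.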

Additional observations from a re-analysis of the deposited data

Results flagged for a closer look

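In 2 genes the effect of PIM447 differed with and without Pd by the interaction term of the limma fit. For EFEMP1, an extracellular matrix protein, the log2 change was -0.68 with PIM447 alone and 0.79 when PIM447 was added to Pd, a difference of 1.46 (adjusted p = 0.0498 in limma). All 3 PIM447 arrays (3.38, 3.79 and 3.83) were below the 3 Control arrays (4.46, 4.13 and 4.44). For ARHGAP6 the change was 0.33 alone and -0.84 when added, a difference of -1.17 (adjusted p = 0.0498 in limma). The 3 PIM447 arrays (8.38, 8.12 and 8.20) were above the 3 Control arrays (8.01, 7.86 and 7.85). The incubation times of the 2 comparisons differ, and neither gene passed adjustment for PIM447 alone (adjusted p = 0.365 and 0.531). With any 1 of the 3 experiments left out, 0 features passed the threshold for this difference.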

How the results depend on the processing

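No feature passed an adjusted p of 0.05 for PIM447 against Control in limma without the replicate block (0 features, 1098 at an unadjusted p under 0.05 against 1346 with the pairing), in the 6 arrays alone, after the level filter, quantile normalization or median centring, with a trended robust prior, with either fold threshold, or when 1 experiment or 1 array was left out (0 to 0 features). With array weights, and with an adjusted p under 0.1, 1 feature passed (SLC7A11). For PIM447 added to Pd the 11 features became 14 without the block, 14 after the level filter, 54 with the trended robust prior and 0 to 1 with 1 experiment left out. The 2 features whose effect differed with Pd became 3 without the block, 3 with the trended robust prior, 0 after the level filter (which leaves out EFEMP1) and 0 to 0 with 1 experiment left out. Of 31 named genes followed through up to 17 alternatives, 29 kept their sign. MYC ran from -0.15 to 0.031 with 1 experiment or array left out, above 0 without experiment 2 and without Control replicate 2, PIM447 replicate 1 or PIM447 replicate 2, and it measured 0.0072 after quantile normalization and 0.18 without PIM447 replicates 1 and 2. FBL ran from -0.12 to 0.017, above 0 without PIM447 replicate 2. The cause was not tested. Of the 7 list medians followed, 0 changed sign under these alternatives. With 3 arrays a group, the number of arrays limits what can be called.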
